A study of Mus musculus with 12 samples.

Results

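The inhibitory checkpoint receptors are cell surface proteins that restrain T cells, and their genes are described here across the 4 groups of the study. The 10 genes Pdcd1, Havcr2, Lag3, Tigit, Ctla4, Cd160, Cd244a, Btla, Vsir and Cd96 were taken by symbol. All 10 were found among 13948 gene symbols in the co-cultured count table and among 35556 in the restimulated one, and all 10 passed the filter on low counts in every comparison. The cells were CD8+ T cells from the spleen of OT-I mice, which carry a transgenic T cell receptor against an ovalbumin peptide. ATRA cells were expanded with antibodies to CD3e and CD28, IL-2 and 5 ng/mL of ATRA (all-trans retinoic acid), a ligand of nuclear receptors that is made from vitamin A. CTRL cells were expanded in the same way with DMSO, the solvent. Both were kept in culture for 5 more days and then co-cultured for 72 h at 1% oxygen with GL261, a mouse glioma line made to express ovalbumin, with no further ATRA, and the labels name this step exhaustion. Live CD45.2+ cells were sorted then (the ATRA co-cultured and CTRL co-cultured groups) or after 24 h of further stimulation through CD3e (the ATRA restimulated and CTRL restimulated groups). Each group had 3 libraries, and all groups share the transgenic receptor, the glioma co-culture and the low oxygen. Cells without co-culture were not analysed here.

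T cells raise several of these receptors, though not all, after activation, and chronic stimulation keeps those high. The same genes can therefore mark recent activation and exhaustion. PD-1 and BTLA recruit phosphatases to the T cell receptor or to CD28, CTLA-4 competes with CD28 for the B7 ligands, and TIGIT and CD96 compete with the activating receptor CD226 for CD155. PD-1 on T cells that infiltrate glioma is the target of blocking antibodies, and several of the other receptors are targets of the same kind.

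Promoter sequences are shown for 4 of the 10 receptors, which do not cover every pattern found below. Pdcd1 and Tigit were lower in ATRA cells after co-culture, the ATRA effect on Havcr2 differed between the states, and Ctla4 was higher in ATRA cells in both. RefSeq promoters of build GRCm38.p6, from 250 bases before to 50 bases after the annotated start, were matched for 9 of the 10 genes, all but Lag3. The windows are chr1:94052504-94052803 on the minus strand for Pdcd1, chr11:46454681-46454980 on the plus strand for Havcr2, chr16:43664135-43664434 on the minus strand for Tigit and chr1:60908775-60909074 on the plus strand for Ctla4. Each is printed 5′ to 3′ on the strand of the gene. Capitals mark the core motif AGGTCA of retinoic acid receptors and the AP-1 motif TGANTCA, which were searched on both strands.
Pdcd1: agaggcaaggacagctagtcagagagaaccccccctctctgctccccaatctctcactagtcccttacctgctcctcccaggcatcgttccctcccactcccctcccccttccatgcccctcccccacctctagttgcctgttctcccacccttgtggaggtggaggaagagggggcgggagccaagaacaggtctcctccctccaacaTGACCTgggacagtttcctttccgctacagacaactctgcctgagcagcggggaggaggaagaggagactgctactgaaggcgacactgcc
Havcr2: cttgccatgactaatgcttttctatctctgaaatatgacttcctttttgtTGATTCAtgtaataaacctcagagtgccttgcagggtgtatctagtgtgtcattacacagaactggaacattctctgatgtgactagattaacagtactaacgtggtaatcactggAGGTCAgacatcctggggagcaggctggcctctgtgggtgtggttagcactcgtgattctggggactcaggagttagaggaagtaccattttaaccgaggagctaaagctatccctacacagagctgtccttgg
Tigit: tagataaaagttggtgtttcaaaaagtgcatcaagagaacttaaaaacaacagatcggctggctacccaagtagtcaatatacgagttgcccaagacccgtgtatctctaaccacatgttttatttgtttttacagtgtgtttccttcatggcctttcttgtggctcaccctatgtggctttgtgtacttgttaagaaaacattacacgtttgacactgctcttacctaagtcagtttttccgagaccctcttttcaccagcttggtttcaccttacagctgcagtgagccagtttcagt
Ctla4: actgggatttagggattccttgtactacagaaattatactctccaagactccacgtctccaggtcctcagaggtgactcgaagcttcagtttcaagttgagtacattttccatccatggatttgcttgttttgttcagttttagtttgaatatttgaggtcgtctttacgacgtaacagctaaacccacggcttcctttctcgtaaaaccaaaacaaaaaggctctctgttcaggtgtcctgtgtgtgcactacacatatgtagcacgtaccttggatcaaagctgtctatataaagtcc
Pdcd1 held the core motif once, on the minus strand of the printed window, 41 bases before the start. Havcr2 held it 84 bases before the start and the AP-1 motif 200 bases before it, and Cd244a held the AP-1 motif 122 bases before its start. Neither motif was found in the windows of Tigit, Ctla4, Cd160, Btla, Vsir or Cd96. Of 32851 mouse promoters of this length, 16.3% held the core motif and 7.81% the AP-1 motif, so a match in single windows is a description of the letters and does not show a binding site.

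Levels are given as CPM, counts per library total, scaled with TMM factors fitted over all 12 libraries, and as mean ± SD over 3 libraries. Library totals were 23558244 to 26111497 counts in the co-cultured state and 16288111 to 20115836 in the restimulated state. A gene was called when its adjusted p was under 0.05 in edgeR's quasi-likelihood test with Benjamini-Hochberg adjustment over all genes tested, and differences are log2 fold changes with their standard error (SE). The labels place the states in separate batch sets, and the counts came in separate tables. State and batch set therefore cannot be told apart, while each ATRA effect is a comparison within a state. ATRA co-cultured replicate 3 and CTRL co-cultured replicate 1 stood apart from the other libraries of their groups. Fits without these 2 libraries keep 2 libraries per co-cultured group. Their smaller spread and p-values follow in part from leaving out libraries that deviated, so they are a description and not support for a call. All 9 T cell markers, such as Cd3e and Cd8a, were detected in every group. The summed level of 7 NK cell markers was 97.5 to 253 CPM in ATRA against 420 to 655 CPM in CTRL co-cultured libraries and 110 to 123 CPM in ATRA against 282 to 375 CPM in CTRL restimulated libraries, with the defining marker Ncr1 at 0.0614 CPM or less, at 0, or not analysed here. The 10 monocyte and macrophage markers summed to 25.4 to 25.9 CPM in ATRA against 13.5 to 15.4 CPM in CTRL co-cultured libraries and 24.8 to 27.0 CPM in ATRA against 12.3 to 17.9 CPM in CTRL restimulated libraries, with Csf1r, Fcgr1 and C1qa at 0 or not analysed here. Of the 5 NK cell genes tested in each state, 3 were called lower in ATRA cells and none higher. Most of the NK cell sum was Klrk1 and Klrd1 in every library. Of the monocyte and macrophage genes, 2 of 4 tested were higher and 1, Cd14, lower in ATRA cells after co-culture, and 2 of 3 were higher after restimulation, while most of the sum was Cd68. The 9 dendritic cell markers summed to 104 to 227 CPM in ATRA against 43.3 to 45.4 CPM in CTRL co-cultured libraries and 91.4 to 93.6 CPM in ATRA against 46.8 to 90.2 CPM in CTRL restimulated libraries, with Siglech at 0 or not analysed here. Most of the co-cultured sum was H2-Ab1. Of the dendritic cell genes, 2 of 5 tested were higher and 1, Zbtb46, lower in ATRA cells after co-culture (-2.70, adjusted p = 0.00232 by edgeR). After restimulation 1 of 5 was higher and 1 lower. The 8 CD4 and regulatory T cell markers summed to 1232 to 1463 CPM in ATRA against 857 to 885 CPM in CTRL co-cultured libraries and 892 to 960 CPM in ATRA against 462 to 516 CPM in CTRL restimulated libraries, while Cd4 and Foxp3 reached at most 1.29 and 1.67 CPM in any library. Most of this sum was Il2ra. Of these genes, 5 of 8 tested were higher and 1, Foxp3, lower in ATRA cells after co-culture. For the restimulated state 3 of 6 were higher and 1 lower. The 12 glioma line markers summed to 1482 to 1698 CPM in ATRA against 948 to 1034 CPM in CTRL co-cultured libraries and 985 to 1040 CPM in ATRA against 852 to 1051 CPM in CTRL restimulated libraries, most of it Vim, which T cells also express, and Gfap and Olig2 were at 0 or not analysed here. Of the glioma line genes, 3 of 5 tested were higher and 2, Igfbp7 and Axl, lower in ATRA cells after co-culture. After restimulation 2 of 6 were higher and 1 lower. The part of other cells in the results was not tested.

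After co-culture, ATRA cells had lower levels of Pdcd1, Tigit, Cd160 and Btla and higher levels of Ctla4, Cd244a and Vsir than CTRL cells. The largest difference was in Pdcd1, which was 8.12-fold lower in ATRA cells. Lag3, Havcr2 and Cd96 did not pass the test. Thus 3 of the 10 receptors were called higher, where 18.1% of 12111 genes tested were, and 4 were called lower, where 15.5% of genes were. The median log2 difference of the 10 was -0.41, beside 0.01 over all genes tested, their median absolute difference was 1.14, beside 0.43, and for 7 of them the ATRA and CTRL libraries did not overlap, beside 56.6% of all genes tested.

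Pdcd1 encodes PD-1, the receptor of PD-L1 and PD-L2. It stood at 24.8, 20.0 and 3.67 CPM in the ATRA co-cultured libraries, against 167, 115 and 115 CPM in the CTRL co-cultured ones. Every ATRA library lay below every CTRL library, and ATRA replicate 3 was the lowest of all. The log2 difference was -3.02 (SE 0.64, adjusted p = 0.0147 by edgeR). In a bulk library, fewer cells that express a gene and less RNA of it per cell cannot be told apart. Without the 2 libraries that stood apart, with 2 left per group, the difference in Pdcd1 was -2.33 (SE 0.09, adjusted p = 3.41e-11 by edgeR). Btla encodes another receptor of the CD28 family, whose ligand is HVEM. It had 7.50, 6.46 and 1.08 CPM in ATRA libraries, against 19.0, 18.1 and 22.2 CPM in CTRL libraries, and the groups did not overlap. Its log2 difference of -1.96 (SE 0.60, adjusted p = 0.0463 by edgeR) was no longer called with the replicate number as a block (-2.23, adjusted p = 0.0651), nor without CTRL replicate 1, 2 or 3 or ATRA replicate 2 (adjusted p = 0.099, 0.108, 0.129 and 0.0894 by edgeR). Without both libraries that stood apart it was called at -1.50 (adjusted p = 2.86e-07 by edgeR). Ctla4, the third member of the CD28 family here, went the other way. It encodes CTLA-4, which cycles between endosomes and the surface and captures CD80 and CD86. Its levels were 250, 299 and 588 CPM in ATRA libraries, against 156, 139 and 137 CPM in CTRL libraries. Every ATRA library was above every CTRL library, with ATRA replicate 3 the highest, and the log2 difference was 1.39 (SE 0.31, adjusted p = 0.0168 by edgeR). The call was lost without CTRL replicate 2 or CTRL replicate 3 (adjusted p = 0.0691 and 0.0714 by edgeR), and the difference was 1.02 without both libraries that stood apart (adjusted p = 1.87e-06 by edgeR).

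Tigit and Cd96 encode receptors of CD155. Tigit had 50.1, 51.5 and 56.5 CPM in the ATRA co-cultured libraries, against 120, 111 and 117 CPM in the CTRL ones. The replicates of each group lay close together, and the log2 difference was -1.13 (SE 0.09, adjusted p = 0.000772 by edgeR). Pdcd1 and Tigit were the 2 receptors whose call in this comparison held under all 12 alternatives. Cd96 had 115, 113 and 89.2 CPM in ATRA libraries, against 161, 93.8 and 105 CPM in CTRL libraries. The groups overlapped, the difference was -0.18 (SE 0.23, adjusted p = 0.565 by edgeR), and it was 0.22 and called without the 2 libraries that stood apart (adjusted p = 0.00918 by edgeR).

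Cd160 encodes a second receptor of HVEM, anchored in the membrane by a lipid. It had 8.66, 7.97 and 3.72 CPM in ATRA co-cultured libraries, against 30.3, 15.1 and 19.0 CPM in CTRL ones. The groups did not overlap, and the log2 difference was -1.65 (SE 0.40, adjusted p = 0.0221 by edgeR). The call was lost when CTRL replicate 1 or 3 or ATRA replicate 2 was left out (adjusted p = 0.0626, 0.0641 and 0.0545 by edgeR). In the GENCODE M21 annotation 2.57% of the exon bases of Cd160 lie in exons of Pdzk1 on the opposite strand, and the strand setting of the counting is not given in the sources used here. Cd244a encodes 2B4, a SLAM family receptor of CD48 that can activate or inhibit. Its levels were 26.7, 32.0 and 45.1 CPM in ATRA libraries, against 22.3, 12.5 and 13.8 CPM in CTRL libraries. The ATRA libraries were all above the CTRL ones, at a log2 difference of 1.10 (SE 0.28, adjusted p = 0.0268 by edgeR). The call was lost with the replicate block (1.12, adjusted p = 0.0524), and likewise when CTRL replicate 2 or 3 or ATRA replicate 2 was left out (adjusted p = 0.0954, 0.103 and 0.0646 by edgeR). Vsir encodes VISTA, an inhibitory B7-like protein that acts as ligand and receptor. It had 129, 143 and 211 CPM in ATRA libraries, against 103, 56.0 and 60.5 CPM in CTRL libraries. All ATRA libraries were higher, and the log2 difference of 1.14 (SE 0.29, adjusted p = 0.0252 by edgeR) was not called once CTRL replicate 2 or 3 or ATRA replicate 2 was left out (adjusted p = 0.0903, 0.098 and 0.0558 by edgeR). Vsir lies within Cdh23 on the opposite strand, with no exon base in common in that annotation.

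Havcr2 encodes TIM-3, and Lag3 a receptor of MHC class II. Havcr2 had 82.0, 91.7 and 146 CPM in ATRA co-cultured libraries, against 206, 148 and 146 CPM in CTRL ones. ATRA replicate 3 reached the CTRL range, and the log2 difference of -0.65 (SE 0.24, adjusted p = 0.0812 by edgeR) was not called. Without ATRA replicate 3 it was called at -0.93, and without the 2 libraries that stood apart at -0.73 (adjusted p = 2e-07 by edgeR). DESeq2 also called it (-0.65, adjusted p = 0.0383), as did edgeR with scaling to library totals (-0.74, adjusted p = 0.029). Lag3 had 146, 154 and 227 CPM in ATRA libraries, against 180, 151 and 156 CPM in CTRL libraries. The groups overlapped, the difference was 0.11 (SE 0.18, adjusted p = 0.646 by edgeR), and leaving out ATRA replicate 3 turned it to -0.10.

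**Figure D1:**
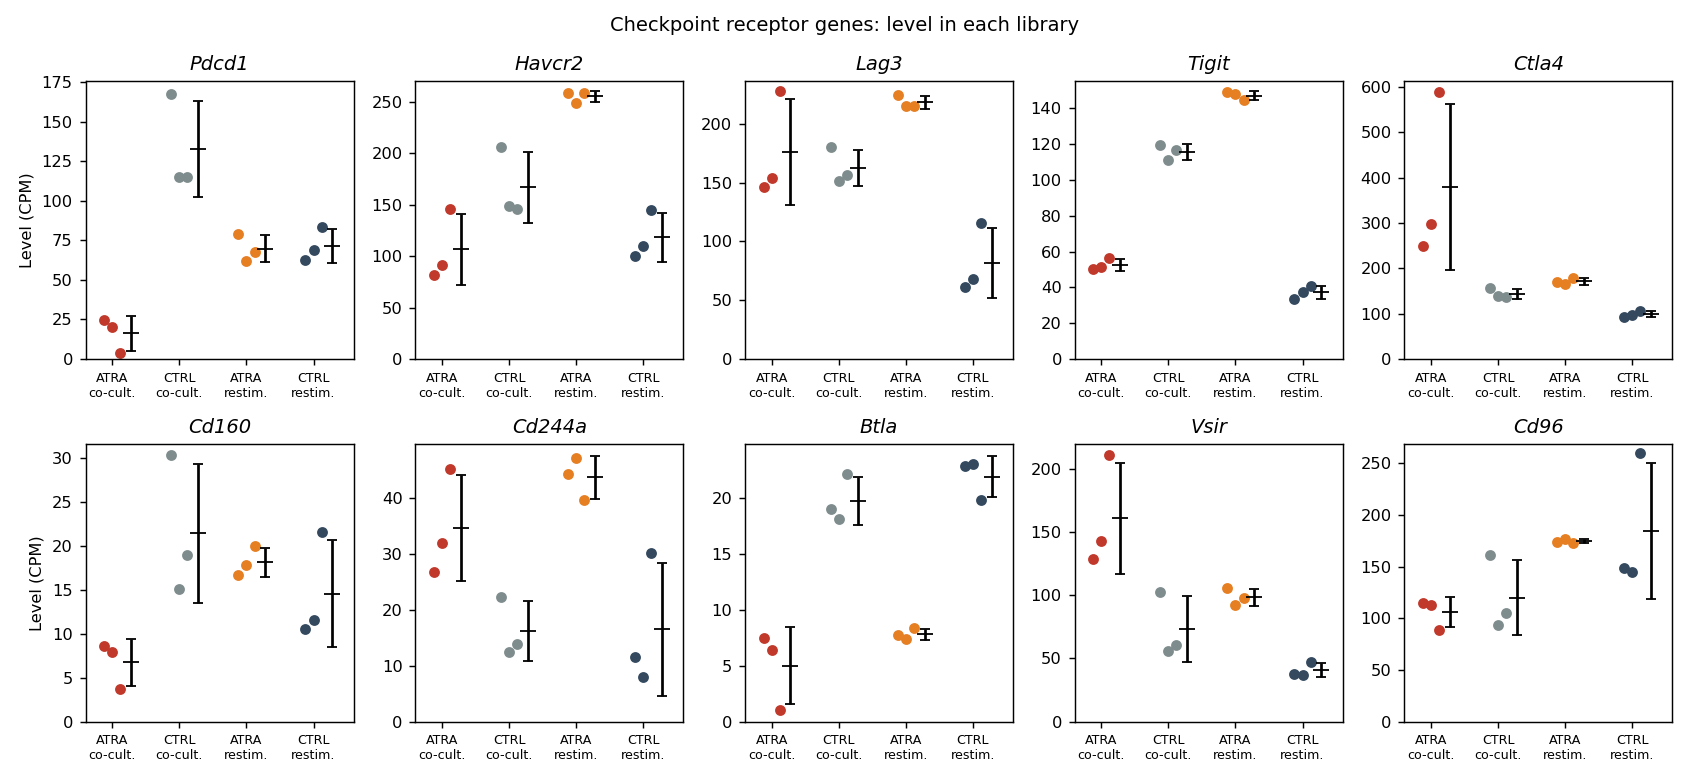
Level of each of the 10 checkpoint receptor genes in CPM (vertical axis, from 0) in the 12 libraries, with the ATRA and CTRL groups of the co-cultured and restimulated states along the horizontal axis; points are libraries in the order of their replicate numbers and the bar is the mean ± SD of 3. Tigit shows the crossing pattern with tight groups, at 52.7 and 115.8 CPM in ATRA and CTRL co-cultured cells and at 147 and 37.2 CPM in ATRA and CTRL restimulated cells.

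After restimulation the picture was different. ATRA cells had higher levels of Tigit, Lag3, Vsir, Havcr2 and Ctla4 than CTRL cells and a lower level of Btla, while Pdcd1, Cd160, Cd244a and Cd96 did not pass. Tigit showed the largest called difference, 3.97-fold higher in ATRA cells. Of the 10 receptors, 5 were called higher, where 31.8% of 12783 genes tested were, and 1 was called lower, where 30.8% of genes were. The groups did not overlap for 7 receptors, beside 68.6% of all genes tested. The median log2 difference of the 10 was 0.96, beside 0.02 over all genes tested. All 6 calls held under all 14 alternatives, among them limma on log2(TPM + 1).

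Tigit had 149, 148 and 145 CPM in the ATRA restimulated libraries, against 33.6, 37.5 and 40.6 CPM in the CTRL ones. The groups were far apart and each was tight, at a log2 difference of 1.99 (SE 0.08, adjusted p = 1.83e-09 by edgeR). Lag3 had 225, 215 and 215 CPM in ATRA libraries, against 61.4, 68.2 and 115 CPM in CTRL libraries. CTRL replicate 3 was the highest of its group, still below every ATRA library, and the difference was 1.42 (SE 0.26, adjusted p = 0.00535 by edgeR). Havcr2 had 258, 249 and 258 CPM in ATRA libraries, against 100.3, 109 and 145 CPM in CTRL libraries, again with CTRL replicate 3 the highest of its group. The difference was 1.12 (SE 0.12, adjusted p = 3.26e-05 by edgeR). These 3 genes encode receptors that are commonly counted together on exhausted T cells, though such receptors can also mark recent activation. The other receptors did not share 1 direction in this state. Vsir and Ctla4 were also higher in ATRA cells, Btla was lower, and Pdcd1, Cd160, Cd244a and Cd96 were not called. Whether ATRA cells were more exhausted than CTRL cells was not tested.

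Vsir had 105.5, 92.1 and 98.0 CPM in ATRA restimulated libraries, against 37.7, 37.3 and 47.6 CPM in CTRL ones. Its log2 difference of 1.28 (SE 0.11, adjusted p = 7.02e-07 by edgeR) had the sign of the co-culture difference. Ctla4 had 170.3, 164 and 179.8 CPM in ATRA libraries, against 93.1, 96.8 and 106 CPM in CTRL libraries. The difference was 0.81 (SE 0.07, adjusted p = 1.39e-06 by edgeR), and no ATRA library overlapped a CTRL library in either state. Btla had 7.76, 7.37 and 8.34 CPM in ATRA libraries, against 22.8, 23.1 and 19.8 CPM in CTRL libraries. It was lower in ATRA cells in this state as well, at -1.48 (SE 0.14, adjusted p = 2.06e-06 by edgeR).

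Pdcd1 was the receptor with the largest difference after co-culture and had none that could be called after restimulation. It stood at 78.9, 62.1 and 67.9 CPM in the ATRA restimulated libraries, against 62.5, 68.7 and 83.6 CPM in the CTRL ones. The groups overlapped over most of their range, and the log2 difference was -0.03 (SE 0.12, adjusted p = 0.829 by edgeR). Cd244a had 44.3, 47.1 and 39.5 CPM in ATRA libraries, against 11.5, 7.92 and 30.1 CPM in CTRL libraries. The groups did not overlap, but CTRL replicate 3 was far above the other CTRL libraries, and the difference of 1.40 (SE 0.54, adjusted p = 0.083 by edgeR) was not called. Without that library it was 2.16 (adjusted p = 1.04e-06 by edgeR), and DESeq2 called it with all libraries (1.41, adjusted p = 0.0228). Cd160 had 16.8, 17.8 and 20.0 CPM in ATRA libraries, against 10.6, 11.6 and 21.6 CPM in CTRL libraries. CTRL replicate 3 was above all ATRA libraries, and the difference of 0.32 (SE 0.25, adjusted p = 0.296 by edgeR) became 0.71 without it (adjusted p = 0.00143 by edgeR). Cd96 had 174, 177 and 173 CPM in ATRA libraries, against 149, 145 and 260 CPM in CTRL libraries. It showed the same CTRL replicate 3, with a difference of -0.07 (SE 0.25, adjusted p = 0.824 by edgeR) that turned to 0.25 without this library (adjusted p = 0.00567 by edgeR).

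**Figure D2:**
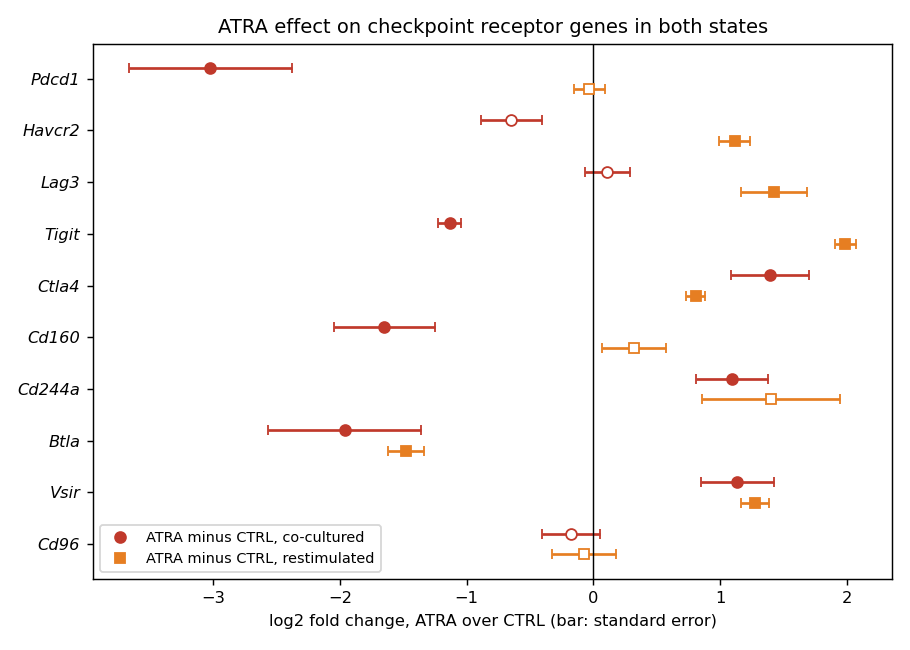
ATRA over CTRL log2 fold change (horizontal axis) of each checkpoint receptor gene in the co-cultured state (circles) and the restimulated state (squares); bars are standard errors, filled symbols passed the test at an adjusted p under 0.05 and open symbols did not. Tigit lies at -1.13 and 1.99 and Pdcd1 at -3.02 and -0.03, while Btla stays on the left and Ctla4 and Vsir stay on the right in both states.

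The difference between these effects was tested directly, as the ATRA effect after restimulation minus the ATRA effect after co-culture. It was called higher for Tigit, Pdcd1, Cd160, Havcr2 and Lag3 and lower for no receptor (5 and 0 of 10), where 23.6% of 12364 genes tested were called higher and 25.5% lower. The count of lower receptors was also 0 at an unadjusted p under 0.05 by edgeR, and 0 by DESeq2. The change was 3.12 for Tigit (SE 0.13, adjusted p = 9.31e-09 by edgeR), whose ATRA effect had opposite signs in the 2 states and was called in both. It was 2.99 for Pdcd1 (SE 0.65, adjusted p = 0.00257 by edgeR), 1.97 for Cd160 (SE 0.50, adjusted p = 0.00689), 1.75 for Havcr2 (SE 0.31, adjusted p = 0.000602) and 1.31 for Lag3 (SE 0.31, adjusted p = 0.00487). Each of these 5 calls held under all 18 alternatives, those that leave out a library included. For 5 receptors the difference was not called, with -0.60 for Ctla4 (SE 0.34), 0.30 for Cd244a (SE 0.57), 0.49 for Btla (SE 0.62), 0.13 for Vsir (SE 0.33) and 0.10 for Cd96 (SE 0.34). These values do not show that the effects were alike in the 2 states. The interaction for Ctla4 was called at -0.82 without ATRA co-cultured replicate 1 (adjusted p = 0.0312 by edgeR), and for Cd244a at 1.07 without CTRL restimulated replicate 3 (adjusted p = 0.0399 by edgeR).

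The same values can be read along the restimulation step, with the reserve that state, batch set and table cannot be told apart there. In ATRA cells 5 receptors were called higher after restimulation, where 29.8% of genes tested were, and 2 lower, where 31.5% were. The log2 changes were 2.10 for Pdcd1, 1.48 for Tigit, 1.42 for Cd160, 1.26 for Havcr2 and 0.72 for Cd96, and -1.14 for Ctla4 and -0.71 for Vsir (adjusted p at most 0.0206 by edgeR). In CTRL cells no receptor was called higher by edgeR (1 was at an unadjusted p under 0.05, and 1 by DESeq2, Cd96 in both), where 15.9% of genes were, and 3 were called lower, where 16.6% were. These were Tigit at -1.64, Lag3 at -0.99 and Vsir at -0.84 (adjusted p at most 0.0185 by edgeR). Pdcd1 had 69.6 ± 8.53 CPM in ATRA restimulated cells, against 16.2 ± 11.1 CPM in ATRA co-cultured cells, and 71.6 ± 10.9 CPM in CTRL restimulated cells, against 132.5 ± 30.3 CPM in CTRL co-cultured cells. The step in CTRL cells was -0.89 and not called (SE 0.45, adjusted p = 0.15 by edgeR), and it was called at the same size without ATRA co-cultured replicate 3, which belongs to neither of these groups and enters the fit only through scaling and spread (-0.89, adjusted p = 0.00102 by edgeR). In that setting Havcr2 and Ctla4 also gained the call in CTRL cells (-0.50, adjusted p = 0.02, and -0.55, adjusted p = 0.000113, by edgeR), and 6 receptors were called lower. The share of all genes called lower in that setting is not given here, so this count has no background. With 1 library left out, 2817 to 5641 genes were called in either direction for this step, against 4020 with all libraries. The ATRA calls of Vsir and Cd96 were lost without ATRA co-cultured replicate 3 (-0.47, adjusted p = 0.096, and 0.61, adjusted p = 0.104, by edgeR) and without ATRA restimulated replicate 2 (adjusted p = 0.0652 and 0.0509), Vsir also without ATRA restimulated replicate 3 (adjusted p = 0.0529). Without ATRA co-cultured replicate 3 the step of Ctla4 in ATRA cells was -0.68. The CTRL call of Vsir was lost without CTRL co-cultured replicate 1 or CTRL restimulated replicate 1 or 2 (adjusted p = 0.064, 0.0647 and 0.0608 by edgeR).

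Ordered by mean CPM over the 4 groups, the receptors did not share 1 pattern. Pdcd1 was highest in CTRL co-cultured cells and lowest in ATRA co-cultured cells, 8.20-fold apart, and the restimulated groups between them overlapped. Tigit had no overlap between neighbours in its order, which ran from 147 ± 2.31 CPM in ATRA restimulated cells over 115.8 ± 4.47 CPM in CTRL co-cultured and 52.7 ± 3.37 CPM in ATRA co-cultured cells to 37.2 ± 3.48 CPM in CTRL restimulated cells. Havcr2, Lag3 and Cd244a were also highest in ATRA restimulated cells, at 255 ± 5.50, 218 ± 5.57 and 43.6 ± 3.84 CPM, with Lag3 and Cd244a overlapping ATRA co-cultured cells. Ctla4 and Vsir were highest in ATRA co-cultured cells, at 379 ± 183 and 161 ± 43.9 CPM. Ctla4 had no overlap between neighbouring groups, and Vsir only between ATRA restimulated and CTRL co-cultured cells. Btla and Cd96 were highest in CTRL restimulated cells, at 21.9 ± 1.82 and 185 ± 65.5 CPM, and in both these overlapped the next group. Cd160 was highest in CTRL co-cultured cells at 21.5 ± 7.94 CPM, and its 3 highest groups overlapped in turn. Cd96 spanned the smallest range of the 10, with 1.75-fold between its highest and lowest group.

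The 10 genes together had 1043 ± 288 CPM in ATRA and 972 ± 168 CPM in CTRL co-cultured cells, and 1204 ± 24.8 CPM in ATRA and 686 ± 160 CPM in CTRL restimulated cells. Longer transcripts weigh more in this sum, so shares are compared only for the same gene between libraries. Ctla4 made up 29.7, 32.6 and 42.9% of the counts of the 10 genes in the ATRA co-cultured libraries, against 13.4, 16.2 and 15.3% in the CTRL ones. In restimulated libraries its shares were 13.9, 13.9 and 14.9% in ATRA and 16.0, 16.0 and 12.2% in CTRL cells. Pdcd1 took 2.96, 2.17 and 0.268% in ATRA co-cultured libraries, against 14.4, 13.4 and 12.9% in CTRL ones. In the restimulated state, where the Pdcd1 level overlapped between groups, its share was 6.42, 5.26 and 5.64% in ATRA, against 10.7, 11.3 and 9.61% in CTRL libraries. Cd96 took 14.1, 15.0 and 14.4% in ATRA restimulated libraries, against 25.6, 23.95 and 29.9% in CTRL ones, while its level overlapped between the groups.

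**Figure D3:**
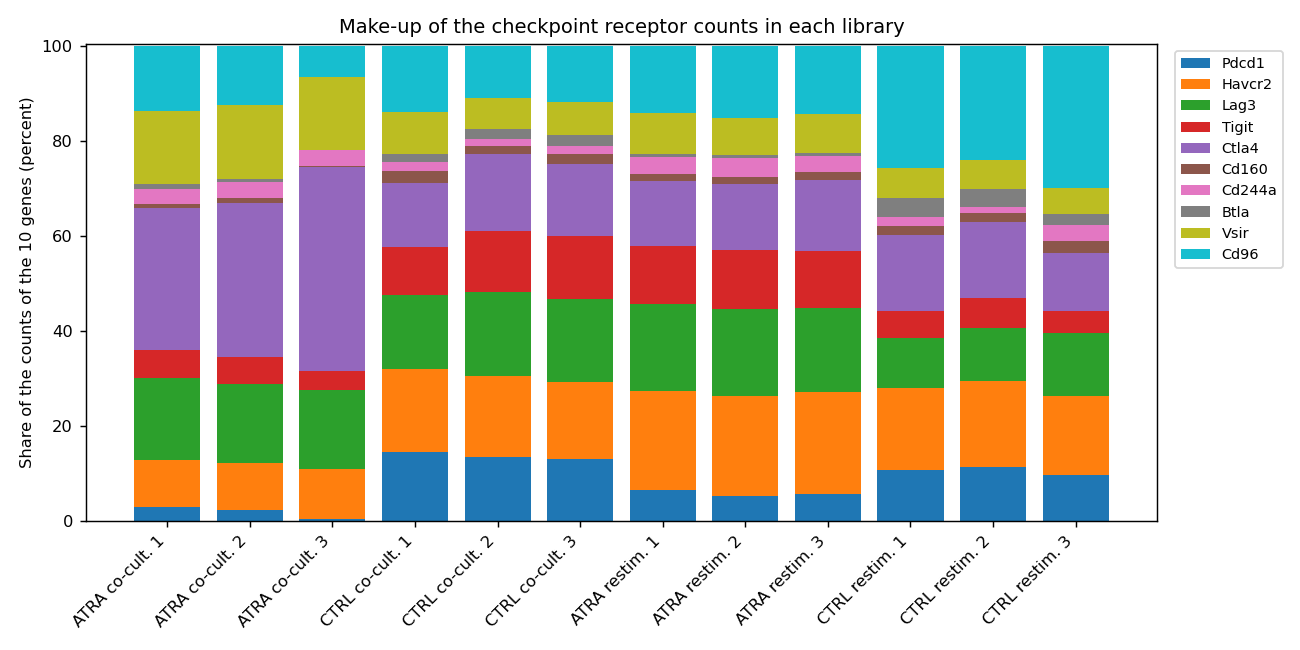
Share of each receptor in the counts of the 10 checkpoint receptor genes (vertical axis, percent) in each of the 12 libraries, ordered by group along the horizontal axis. The Ctla4 segment is widest in ATRA co-cultured libraries, at 29.7 to 42.9%, and the Pdcd1 segment is at most 2.96% there.

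Levels can be compared between receptors only per transcript length, which the deposited TPM of the restimulated libraries allow. In ATRA restimulated cells Tigit was the most abundant receptor transcript at 256 ± 5.88 TPM, followed by Lag3 at 229 ± 9.27 TPM. Ctla4 (152 ± 6.20 TPM) and Vsir (150.3 ± 7.08 TPM) overlapped, then came Havcr2 at 114 ± 2.79 TPM and Cd96 at 95.8 ± 2.11 TPM. Pdcd1 (43.8 ± 5.14 TPM) and Cd244a (37.5 ± 4.11 TPM) overlapped, and Cd160 (20.6 ± 1.96 TPM) and Btla (7.69 ± 0.679 TPM) were lowest. In CTRL restimulated cells the order was less clear. Cd96 (105 ± 33.2 TPM), Ctla4 (93.7 ± 4.12 TPM), Lag3 (84.5 ± 31.8 TPM), Tigit (63.9 ± 5.37 TPM), Vsir (60.9 ± 14.3 TPM), Havcr2 (52.3 ± 10.6 TPM) and Pdcd1 (42.9 ± 8.11 TPM) each overlapped the next. Btla, Cd160 and Cd244a lay below them at 21.7 ± 2.50, 16.3 ± 7.11 and 14.2 ± 10.6 TPM. By mean, Tigit thus ranked 1 of 10 in ATRA cells and 4 of 10 in CTRL cells.

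**Figure D4:**
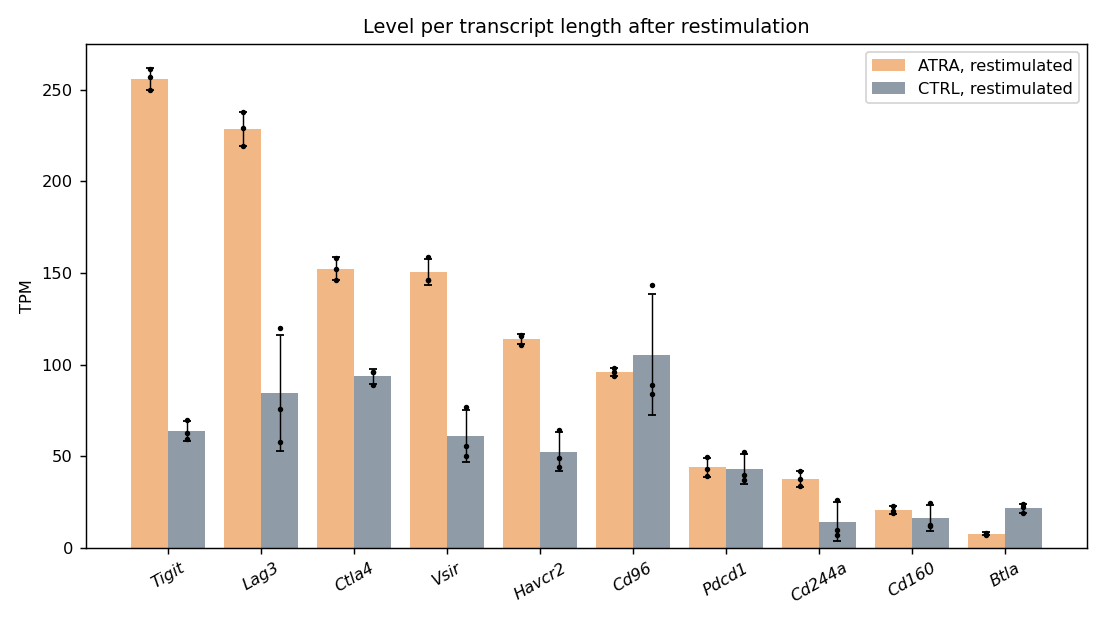
TPM (vertical axis, from 0) of the 10 checkpoint receptor genes in restimulated ATRA cells (left bar of each pair) and CTRL cells (right bar), ordered by the ATRA mean; bars are means, whiskers the SD and points the 3 libraries. Tigit leads in ATRA cells at 256 TPM and stands at 63.9 TPM in CTRL cells, and Btla has 7.69 TPM in ATRA and 21.7 TPM in CTRL cells.

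Genes with a similar course over the 12 libraries were sought for 5 receptors, by the root mean square difference of log2 levels centred on their mean. The search covered genes of at least 5 CPM on average, 9618 before predicted and clone-named genes were left out. For Ctla4 these were Dennd11 (0.109) and Stat3 (0.167), for Lag3 Btg1 (0.139) and Tapbpl (0.148), for Havcr2 Slc5a3 (0.170) and Raph1 (0.198), and for Tigit Gas2l1 (0.207) and Orai1 (0.222). Pdcd1 had no near match by this measure, which is not scaled to the range of a gene, with Galnt3 at 0.469 and Ublcp1 at 0.490. Among the receptors themselves the closest pair was Ctla4 and Vsir (0.268), followed by Havcr2 and Tigit (0.461).

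The ligands and counter-receptors of these receptors can also be made by T cells, and 16 were listed. After co-culture 3 of 12 tested were higher and 4 lower in ATRA cells, and after restimulation 4 of 13 were higher and 4 lower. Of all genes tested, 33.6% were called in either direction after co-culture and 62.6% after restimulation, and the 8 of 13 ligands called after restimulation lie near that share. Cd274 encodes PD-L1. It had 156, 153 and 152 CPM in ATRA restimulated libraries, against 21.4, 18.0 and 21.5 CPM in CTRL ones. The groups were far apart, at a log2 difference of 2.92 (SE 0.09, adjusted p = 2.16e-10 by edgeR). After co-culture Cd274 was lower in ATRA cells, with 36.5 ± 3.10 CPM in ATRA and 53.3 ± 5.50 CPM in CTRL cells (-0.55, SE 0.12, adjusted p = 0.0155 by edgeR). Pdcd1lg2, which encodes PD-L2, had 9.66 ± 1.37 CPM in ATRA and 21.5 ± 2.19 CPM in CTRL co-cultured cells (-1.15, adjusted p = 0.00429 by edgeR). Pvr encodes CD155, the ligand of TIGIT, CD96 and CD226. It had 74.1, 72.4 and 67.1 CPM in ATRA restimulated libraries, against 13.7, 13.8 and 17.7 CPM in CTRL ones, so that ligand and Tigit were both higher in ATRA cells (2.25, SE 0.12, adjusted p = 1.42e-08 by edgeR). After co-culture, where Tigit was lower, Pvr was also higher in ATRA cells, with 45.8 ± 1.29 CPM in ATRA and 33.6 ± 2.95 CPM in CTRL cells (0.45, SE 0.11, adjusted p = 0.0218 by edgeR). Hmgb1 and Ceacam1 encode reported partners of TIM-3. Hmgb1 was lower in ATRA cells in both states (-0.65, adjusted p = 0.0108, and -1.29, adjusted p = 4.41e-08, by edgeR), and Ceacam1 was lower after co-culture (-3.34, adjusted p = 0.00247 by edgeR). After restimulation Ceacam1 was higher, with 9.46 ± 0.752 CPM in ATRA and 4.24 ± 2.98 CPM in CTRL cells (1.16, adjusted p = 0.0376 by edgeR).

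The activating receptors that share ligands or families with the checkpoint receptors were listed as 10 genes. In ATRA cells 1 was higher and 5 lower after co-culture, and 6 were higher and 3 lower after restimulation, beside the 33.6% and 62.6% of all genes called in those states. Cd226 encodes the activating receptor of CD155, which TIGIT opposes. It had 35.3, 39.6 and 61.3 CPM in ATRA co-cultured libraries, against 30.4, 22.2 and 22.9 CPM in CTRL ones. All ATRA libraries were higher (0.85, SE 0.23, adjusted p = 0.0323 by edgeR), but the call was lost with the replicate block (adjusted p = 0.0612), and likewise when CTRL replicate 2 or 3 or ATRA replicate 2 was left out (adjusted p = 0.118, 0.117 and 0.0631 by edgeR). After restimulation Cd226 had 39.8, 37.6 and 35.4 CPM in ATRA libraries, against 123, 111 and 126 CPM in CTRL libraries. Here ATRA cells were lower (-1.67, SE 0.09, adjusted p = 8.65e-09 by edgeR), opposite to Tigit in both states. The count of Tigit per count of Cd226 was 1.42, 1.30 and 0.922 in ATRA co-cultured libraries, against 3.93, 5.00 and 5.09 in CTRL ones. After restimulation it was 3.75, 3.93 and 4.09 in ATRA libraries, against 0.273, 0.338 and 0.323 in CTRL libraries. The groups did not overlap in either state, and the direction was opposite in the 2 states. The count of Cd96 per count of Cd226 was 3.27, 2.85 and 1.46 in ATRA co-cultured libraries, against 5.31, 4.23 and 4.58 in CTRL ones. After restimulation it was 4.37, 4.71 and 4.89 in ATRA libraries, against 1.21, 1.31 and 2.07 in CTRL libraries. The groups did not overlap in either state, again with opposite directions. For Ctla4 the matching activating receptor is CD28, and the count of Ctla4 per count of Cd28 was 4.05, 4.17 and 6.00 in ATRA co-cultured libraries, against 1.40, 1.54 and 1.47 in CTRL ones. After restimulation this ratio was 1.63, 1.55 and 1.69 in ATRA libraries, against 1.36, 1.56 and 1.47 in CTRL libraries, and the groups overlapped.

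**Figure D5:**
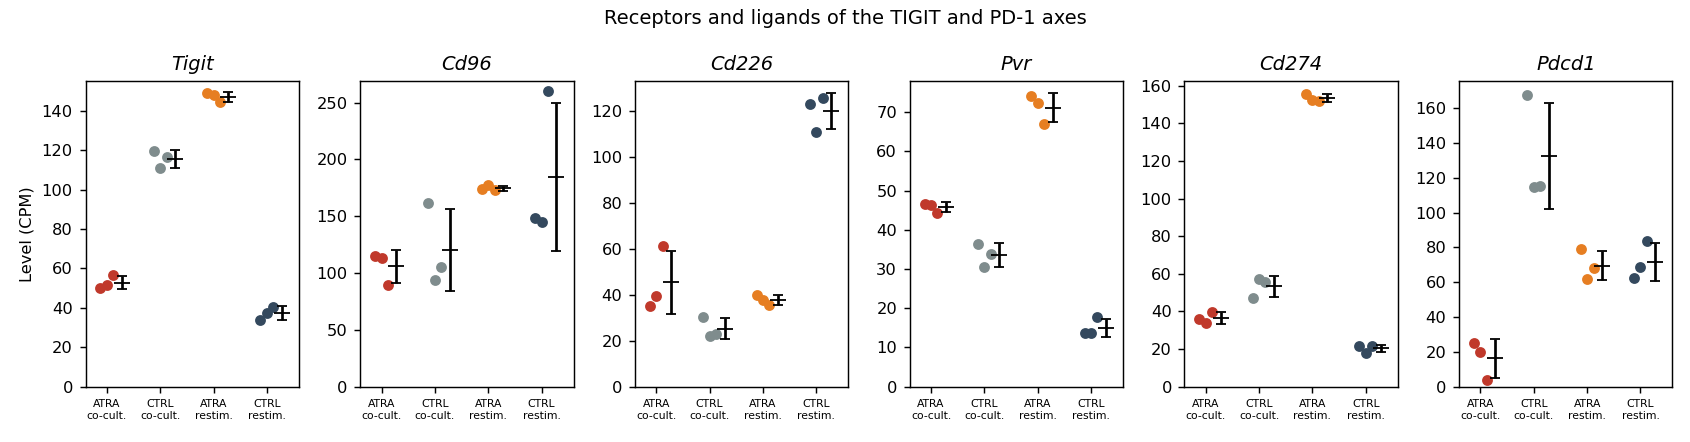
Levels in CPM (vertical axes, from 0) of Tigit, Cd96, their activating counterpart Cd226, the shared ligand gene Pvr, the PD-1 ligand gene Cd274 and Pdcd1 in the 12 libraries by group; points are libraries and the bar is the mean ± SD of 3. Cd226 is highest in CTRL restimulated cells at 120.0 CPM, where Tigit is lowest at 37.2 CPM, and Cd274 reaches 153 CPM in ATRA restimulated cells.

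Crtam, which encodes a nectin-like receptor of activated CD8+ T cells, had 21.6 ± 0.855 CPM in ATRA and 287 ± 62.2 CPM in CTRL co-cultured cells (-3.72, adjusted p = 0.000181 by edgeR). After restimulation Crtam was higher in ATRA cells, with 89.1 ± 2.44 CPM in ATRA and 38.7 ± 3.74 CPM in CTRL cells (1.21, adjusted p = 3.17e-07 by edgeR). Slamf1 was lower in ATRA cells after co-culture (-1.76, adjusted p = 0.00163 by edgeR) and higher after restimulation (0.50, adjusted p = 0.000781 by edgeR). Slamf6, a relative of Cd244a that marks progenitor exhausted T cells, had 1.25 ± 0.411 CPM in ATRA and 26.2 ± 1.46 CPM in CTRL restimulated cells (-4.37, SE 0.21, adjusted p = 5.93e-09 by edgeR). After co-culture its mean was higher in ATRA cells, at 7.93 ± 3.05 CPM against 4.34 ± 0.565 CPM in CTRL cells. That difference was not called (0.88, SE 0.34, adjusted p = 0.0839 by edgeR). Cd2, the adhesion receptor of CD48, was higher in ATRA restimulated cells (0.93, adjusted p = 8.85e-08 by edgeR) and lower in ATRA co-cultured cells (-0.47, adjusted p = 0.0404 by edgeR).

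Phosphatases and adaptors carry the signal of the checkpoint receptors inside the cell. Of 17 listed, 5 of 16 tested were higher and 5 lower in ATRA cells after co-culture, and 6 of 17 were higher and 7 lower after restimulation. In all, 10 of 16 were called after co-culture and 13 of 17 after restimulation, beside 33.6% and 62.6% of all genes. Ptpn6 encodes SHP-1, a phosphatase recruited by several of these receptors. It had 88.7 ± 8.96 CPM in ATRA and 212 ± 0.696 CPM in CTRL restimulated cells (-1.25, adjusted p = 5.31e-08 by edgeR). Csk, the kinase that inhibits Lck, and Dgkz, the kinase that removes diacylglycerol, were lower with it (-1.34, adjusted p = 6.05e-08, and -1.37, adjusted p = 3.74e-08, by edgeR). Ptpn6 and Dgkz were lower in ATRA cells after co-culture as well (-0.63, adjusted p = 0.0118, and -0.60, adjusted p = 0.0296, by edgeR). Csk was not called there (0.18, adjusted p = 0.425 by edgeR). After co-culture Inpp5d, which encodes the lipid phosphatase SHIP-1, was higher in ATRA cells (0.94, adjusted p = 0.00413 by edgeR), as was Pag1, which encodes the membrane adaptor of Csk (2.62, adjusted p = 0.00751). Both also had higher means in ATRA than in CTRL restimulated cells. These were 215 ± 5.63 against 154 ± 12.5 CPM for Inpp5d and 25.6 ± 2.23 against 6.78 ± 2.44 CPM for Pag1. Fyn, a Src family kinase, was lower after co-culture (-0.62, adjusted p = 0.00622 by edgeR) and higher after restimulation (0.46, adjusted p = 0.000121 by edgeR).

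The 10 listed genes of receptor trafficking and shedding gave 1 higher and 4 lower in ATRA cells after co-culture, and 3 higher and 3 lower after restimulation. The 6 of 10 called after restimulation lie near the 62.6% of all genes called there, and the 5 of 10 after co-culture stand beside 33.6%. Adam10 and Adam17 encode proteases that release LAG-3 from the surface. Adam17 had 68.8 ± 2.52 CPM in ATRA and 142 ± 8.12 CPM in CTRL co-cultured cells (-1.05, adjusted p = 0.00103 by edgeR), and Adam10 was lower in both states (-0.82, adjusted p = 0.00967, and -0.67, adjusted p = 1.43e-06, by edgeR). Fut8, a fucosyltransferase that supports PD-1 at the surface, was higher in ATRA co-cultured cells (2.20, adjusted p = 0.00129 by edgeR). Lrba, which protects CTLA-4 from lysosomes, was lower (-0.43, adjusted p = 0.000131 by edgeR) and Cmtm6, which stabilises PD-L1, was higher (0.61, adjusted p = 0.000344) in ATRA restimulated cells. Cmtm6 was not called there by limma on log2(TPM + 1) (0.94, adjusted p = 0.063). After co-culture Lrba was lower in ATRA cells as well (-0.46, adjusted p = 0.013 by edgeR), and Cmtm6 was not called (0.23, adjusted p = 0.302 by edgeR).

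Of 20 other inhibitory receptors and related surface proteins, 16 were tested after co-culture, with 6 higher and 5 lower in ATRA cells, and 15 after restimulation, with 7 higher and 2 lower. The 9 of 15 called after restimulation lie near the 62.6% of all genes called there, and the 11 of 16 after co-culture stand beside 33.6%. Pecam1, a receptor with inhibitory motifs, had 74.3 ± 12.4 CPM in ATRA and 15.7 ± 0.926 CPM in CTRL co-cultured cells (2.25, adjusted p = 0.000386 by edgeR). Cd5, which dampens T cell receptor signals, was lower in ATRA cells in both states (-1.21, adjusted p = 0.000493, and -0.92, adjusted p = 3.52e-06, by edgeR). Adora2a, which encodes an adenosine receptor, was called in opposite directions in the 2 states. So were Tigit, Cd274, Ceacam1, Cd226, Crtam, Slamf1, Cd2, Fyn and Nt5e among the receptor and pathway genes named here. The share of all genes called in opposite directions is not given here. The difference between the 2 effects was called, in either direction, for 49.2% of 12364 genes tested. The co-culture calls of Cd2 and Nt5e and the restimulation call of Ceacam1 lay near the threshold (adjusted p = 0.0404, 0.0379 and 0.0376 by edgeR). No alternatives were run for these calls, and the co-culture call of Cd226 was lost under several. Adora2a had 23.7, 25.4 and 19.3 CPM in ATRA co-cultured libraries, against 92.5, 75.5 and 84.7 CPM in CTRL ones (-1.88, adjusted p = 0.000772 by edgeR). After restimulation it had 106, 101.5 and 103.5 CPM in ATRA libraries, against 48.4, 45.1 and 39.1 CPM in CTRL libraries (1.24, adjusted p = 2.07e-07 by edgeR). The difference between these effects was 3.11 (SE 0.17, adjusted p = 1.03e-07 by edgeR). Nt5e, which encodes CD73, an enzyme that makes adenosine, was higher in ATRA restimulated cells (1.62, adjusted p = 3.63e-06 by edgeR). After co-culture it was lower, with 14.3 ± 8.41 CPM in ATRA and 47.9 ± 12.2 CPM in CTRL cells (-1.73, adjusted p = 0.0379 by edgeR).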

How the data were processed

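RNA of sorted cells was measured by bulk sequencing in 12 libraries, 3 per group, from a stranded total RNA kit, per the labels' protocols. Titles gave group and replicate number. Whether replicates were separate animals or cultures is not stated in the labels, and p-values therefore cover the spread of these libraries alone, which may be technical.

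The authors deposited whole-number counts per gene symbol in 1 table per state and TPM, values per transcript length relative to the library, for the restimulated samples, with columns that name the treatment but not the replicate. The submitters' processing notes name build mm39, DESeq2 1.42.1, Salmon 1.10.3, STAR 2.7.11b and cutadapt 5.0. What each did, and the annotation, is not stated there. The smallest row sum of the co-cultured count table was 10. Of 35588 restimulated rows, 16386 were 0 throughout and 32 repeated a symbol, of which the row with the largest total was kept. At the 3 counts taken as the floor, the limit covers counting error only.

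Counts were fitted with edgeR 4.0.16 in R 4.3.3 (TMM, filterByExpr by group, robust quasi-likelihood, Benjamini-Hochberg over all genes tested), with 6 libraries per ATRA comparison and all 12, over symbols in both tables, for the interaction and the restimulation changes. The SE is the log2 fold change divided by the root of F. DESeq2 1.42.0, limma 3.58.1 on log2(TPM + 1), other scalings, no filter, the replicate block and leaving out libraries were alternatives. The fits were also run on simulated data with a fixed spread and no outlying library, which does not test them at the spread of the co-cultured libraries. Same-numbered libraries share a batch by the labels, so the numbers pair them; their deviations from the group means correlated at 0.13, -0.061 and 0.066 after co-culture and -0.035, -0.095 and 0.040 after restimulation. No 2 libraries were alike within sampling noise (smallest chi-square per degree of freedom 3.76).

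The receptors and lists were chosen with earlier results of these data known. The B cell marker list is not reported here. All 10 receptors were named, and from each pathway list the 3 called genes with the smallest p per ATRA comparison. Other values were added after they were seen. After co-culture these were Cd274, Pvr, Cd2, Nt5e, Slamf6, Ptpn6, Csk, Dgkz, Lrba and Cmtm6. After restimulation they were Ceacam1, Crtam, Slamf1, Fyn, Inpp5d and Pag1. The ratios to Cd226 and Cd28 and the interaction of Adora2a were also added after their values were seen. Promoters came from RefSeq on GRCm38.p6, another build than that of the counts, so no count was placed by coordinates.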

Additional observations from a re-analysis of the deposited data

Results flagged for a closer look

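The ATRA effect of 5 receptors differed between the states by the test of that difference (restimulated minus co-cultured, log2), which is why they are listed. The value was 3.12 for Tigit, 2.99 for Pdcd1, 1.97 for Cd160, 1.75 for Havcr2 and 1.31 for Lag3. The state of the cells, the batch set and the count table changed together between the 2 effects.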

How the results depend on the processing

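After co-culture 4071 genes were called, 2892 with the replicate block, 7980 without the 2 libraries that stood apart and 1613 to 5617 when 1 library was left out. Of the receptors, 7 were called, 5 with the replicate block, 9 without the 2 libraries that stood apart and 2 to 8 when 1 library was left out. The fit without the 2 libraries that stood apart has 2 libraries per group and a spread lowered by that choice. Receptors called for the restimulation change in CTRL cells numbered 3, and 2 to 6 when 1 library was left out. All genes called for it numbered 4020, and 2817 to 5641 when 1 library was left out. The replicate block gave 7751 genes after restimulation, against 7998 without it, and 5403 for the interaction, against 6077; it changed no other call of a checkpoint receptor than those given for Btla and Cd244a, and that of Cd226. It could not be fitted for the restimulation changes, since batches lie within a state.

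Signs turned only in differences that were not called with all libraries. Without the 2 libraries that stood apart, the co-culture differences were -0.014 for Lag3 and 0.22 for Cd96, and the interaction of Cd96 was -0.28. With limma on TPM the restimulated difference of Pdcd1 was 0.04 under each setting (0.040, 0.041 and 0.040). With 1 library left out, the co-culture difference was -0.34 to 0.10 for Cd96 and -0.10 to 0.22 for Lag3, the restimulated one -0.129 to 0.085 for Pdcd1 and -0.23 to 0.25 for Cd96, the interaction -0.20 to 0.37 for Vsir, -0.17 to 0.43 for Cd96 and -0.024 to 1.07 for Cd244a, and the CTRL restimulation change of Cd244a -0.73 to 0.36. The cause was not tested. Scaling to library totals moved the all-gene median of the ATRA restimulation change to 0.13, against -0.03 with TMM, and Lag3 was then called (0.49, adjusted p = 0.0427 by edgeR), as was Cd96 in CTRL cells (0.71, adjusted p = 0.0402). Btla was not called after co-culture with that scaling (adjusted p = 0.0552 by edgeR). TMM factors fitted within each table put Tigit at 49.2 CPM in ATRA and 107.9 CPM in CTRL co-cultured cells. The fewest counts of any receptor in a library were 23, or 1.08 CPM, for Btla in ATRA co-cultured replicate 3, where depth limits precision most.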
